A study of Mus musculus with 12 samples.

Results

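The genes described here encode 10 enzymes of threonine, serine and one-carbon metabolism: Tdh, Gcat, Gldc, Shmt1, Shmt2, Mthfd1, Mthfd2, Phgdh, Psat1 and Mat2a. They were taken by name from the 55416 genes counted in each library, and all 10 passed the filter on low counts. This set, and the lists of related genes below, were chosen with earlier results of these data known. Counts of such genes beside shares over all genes tested are therefore a description only. Total RNA of Bl/6J mouse embryonic stem cells was sequenced in 12 libraries, 3 in each of 4 groups. The groups were C48S cells at day 2 of retinoic acid (RA), WT cells at day 2 of RA, undifferentiated C48S cells and undifferentiated WT cells. C48S cells carry a cysteine-to-serine change in Oct4, the pluripotency transcription factor encoded by Pou5f1, and are a single clone, number 46, so the change and any other property of the clone cannot be told apart. Whether that clone was derived from these WT cells is not stated in the labels. Undifferentiated cells of both lines were kept with PD (an inhibitor of MEK, 1 µM), CHIR (an inhibitor of GSK3, 3 µM) and ascorbic acid. RA was given at 1.5 mg/L without LIF, the cytokine that sustains self-renewal, and the labels do not say which of the other additives stayed in that medium. Titles and protocol place all RA libraries at day 2, by which they were grouped, but the treatment field gives each a different day, later in every C48S RA library than in any WT RA library. Were that field right, day and line could not be told apart after RA. Nothing in the labels tells whether replicates were grown separately, so every p-value here is set against library-to-library spread that may be only technical.

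In mouse pluripotent cells Tdh, a mitochondrial threonine dehydrogenase, starts the breakdown of threonine, and Gcat, its partner ligase, splits the product into glycine and acetyl-CoA. Gldc is the glycine decarboxylase of the glycine cleavage system, which passes a carbon of glycine to tetrahydrofolate, and the serine hydroxymethyltransferases Shmt1 (cytosol) and Shmt2 (mitochondria) do the same with serine. Mthfd1 (cytosol) and Mthfd2 (mitochondria) interconvert the folate-bound carbon units, Phgdh and Psat1 make serine from a glycolytic intermediate, and Mat2a makes S-adenosylmethionine, the methyl donor of histone and DNA methylation. Mouse embryonic stem cells are known for their need of threonine. In humans the TDH gene is a pseudogene.

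Promoter windows of RefSeq on GRCm38.p6, from 250 bases before to 50 after a start site, were matched by symbol for 9 of the 10 genes. Psat1 had more than 1 start site, so there were 10 windows. Each window and its reverse complement were searched for TGATGNAA (part of the site read by ATF4, the amino acid response factor), CACGTG (an E-box), ATGCAAAT (the octamer read by POU factors such as Oct4), GGGCGG (a GC box) and CCAAT. Neither TGATGNAA nor ATGCAAAT occurred in a window of these genes, and they occurred in 3.97% and 1.74% of all 32841 windows. CACGTG occurred in Gcat alone among these genes and in 7.15% of all windows. CCAAT occurred in windows of 7 of the 9 genes and in 37.42% of all windows, and GGGCGG occurred in 6 of the 9 and in 35.67%. The windows below are those of Gcat, which holds the E-box, and of Mthfd2 and Psat1, each with 3 CCAAT matches. They run 5′ to 3′ on the strand of the gene, and capitals mark the matches on either strand, CCAAT also as ATTGG and GGGCGG also as CCGCCC. Matches to different motifs did not overlap each other in these windows. A match is only an occurrence of these letters, and binding was not measured.
Gcat, chr15:79030624-79030923, plus strand: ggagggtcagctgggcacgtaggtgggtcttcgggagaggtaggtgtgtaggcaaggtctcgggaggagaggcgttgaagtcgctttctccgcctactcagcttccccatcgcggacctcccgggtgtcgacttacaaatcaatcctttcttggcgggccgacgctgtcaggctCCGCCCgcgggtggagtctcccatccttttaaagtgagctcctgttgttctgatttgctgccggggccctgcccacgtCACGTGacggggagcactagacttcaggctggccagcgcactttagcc
Mthfd2, chr6:83317555-83317854, minus strand: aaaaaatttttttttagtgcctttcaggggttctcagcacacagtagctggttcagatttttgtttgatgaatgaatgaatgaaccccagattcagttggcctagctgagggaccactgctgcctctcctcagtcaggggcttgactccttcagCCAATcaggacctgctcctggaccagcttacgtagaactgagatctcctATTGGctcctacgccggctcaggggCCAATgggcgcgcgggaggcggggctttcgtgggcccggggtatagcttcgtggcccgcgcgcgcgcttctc
Psat1, chr19:15925010-15925309, minus strand: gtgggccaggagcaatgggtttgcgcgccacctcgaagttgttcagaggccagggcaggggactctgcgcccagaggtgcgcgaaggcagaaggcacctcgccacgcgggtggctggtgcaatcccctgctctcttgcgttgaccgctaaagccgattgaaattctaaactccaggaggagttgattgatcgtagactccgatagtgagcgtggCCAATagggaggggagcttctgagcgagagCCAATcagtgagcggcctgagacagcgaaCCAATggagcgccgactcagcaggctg

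Library totals lay between 8678088 and 13597098 counts. Within groups the correlation between libraries, taken across genes, was at least r = 0.993, and C48S undifferentiated replicate 3 stood somewhat apart from replicates 1 and 2. The 8 stem cell markers summed to 864 to 907 CPM (counts scaled by library size) in C48S RA libraries and 433 to 454 CPM in WT RA libraries. Their sum was 5354 to 5474 CPM in C48S undifferentiated libraries and 5398 to 5541 CPM in WT undifferentiated libraries, with all 8 markers detected in every library. By edgeR's test at an adjusted p under 0.05, 2 of the 8 were higher in undifferentiated C48S than WT cells and 4 lower. The shares over all genes tested were 27.5% and 28.1%. Higher were Klf4 (log2 fold change 1.59) and Esrrb (0.45), and lower were Nanog (-0.32), Sox2 (-0.28), Tfcp2l1 (-0.28) and Dppa5a (-0.32). The 8 fibroblast or feeder markers summed to 352 to 357 CPM in C48S RA, 227 to 231 CPM in WT RA, 451 to 609 CPM in C48S undifferentiated and 333 to 364 CPM in WT undifferentiated libraries, with Postn at 0 in a C48S RA library. The higher sum in C48S RA rests on Pdgfrb, at 220 to 228 CPM there and 80.3 to 88.2 CPM in WT RA libraries. By the same test 1 of the 8, Pdgfrb, was higher in C48S after RA and 4 were lower. Over all genes tested 28.8% were higher and 25.7% lower in that comparison. Undifferentiated, 4 of the 8 were higher in C48S and 3 lower. In bulk RNA, fewer cells of a type and less RNA per cell cannot be told apart, and the part of cell composition in the values below was not tested. Protein-coding genes of chromosome 6, where Mthfd2 and Mat2a lie, had a median log2 fold change of C48S over WT of 0.63 after RA and 0.58 undifferentiated. On chromosome 11, where Shmt1 lies, the medians were -0.48 after RA and -0.53 undifferentiated. On the chromosomes of the other 7 genes the medians lay within 0.1 of 0.

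Tdh was among the least abundant of the 10 transcripts per length after RA and the most abundant in undifferentiated cells. Given as mean CPM per kilobase (kb) of exon, Tdh stood at 3.88 ± 0.206 in C48S RA, 0.419 ± 0.120 in WT RA, 328 ± 7.98 in C48S undifferentiated and 253 ± 6.34 in WT undifferentiated cells (SD, n = 3 each). It made up 1.21% of the summed level per kb of the 10 genes in C48S RA and 0.169% in WT RA cells, against 38.5% in C48S undifferentiated and 29.9% in WT undifferentiated cells. Mat2a was the next in both undifferentiated groups, at 168 ± 7.90 CPM per kb in C48S and 159 ± 1.24 in WT. After RA the order differed between the lines. In C48S RA cells Shmt2 (74.2 ± 2.99 CPM per kb) and Mat2a (69.0 ± 3.95) led, with libraries that overlapped each other. In WT RA cells Mthfd1 (50.1 ± 1.87 CPM per kb), Phgdh (46.6 ± 1.95) and Shmt2 (44.0 ± 2.19) led, and neighbours in that order lay within 2 SD of each other. Gcat was low in all 4 groups, at 2.60 ± 0.329 CPM per kb in C48S RA, 1.27 ± 0.0825 in WT RA, 7.19 ± 0.154 in C48S undifferentiated and 4.38 ± 0.296 in WT undifferentiated cells. The 10 levels together summed to 320 ± 12.8 CPM per kb in C48S RA and 247 ± 10.02 in WT RA cells, against 851 ± 13.5 in C48S undifferentiated and 846 ± 13.6 in WT undifferentiated cells.

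**Figure D1:**
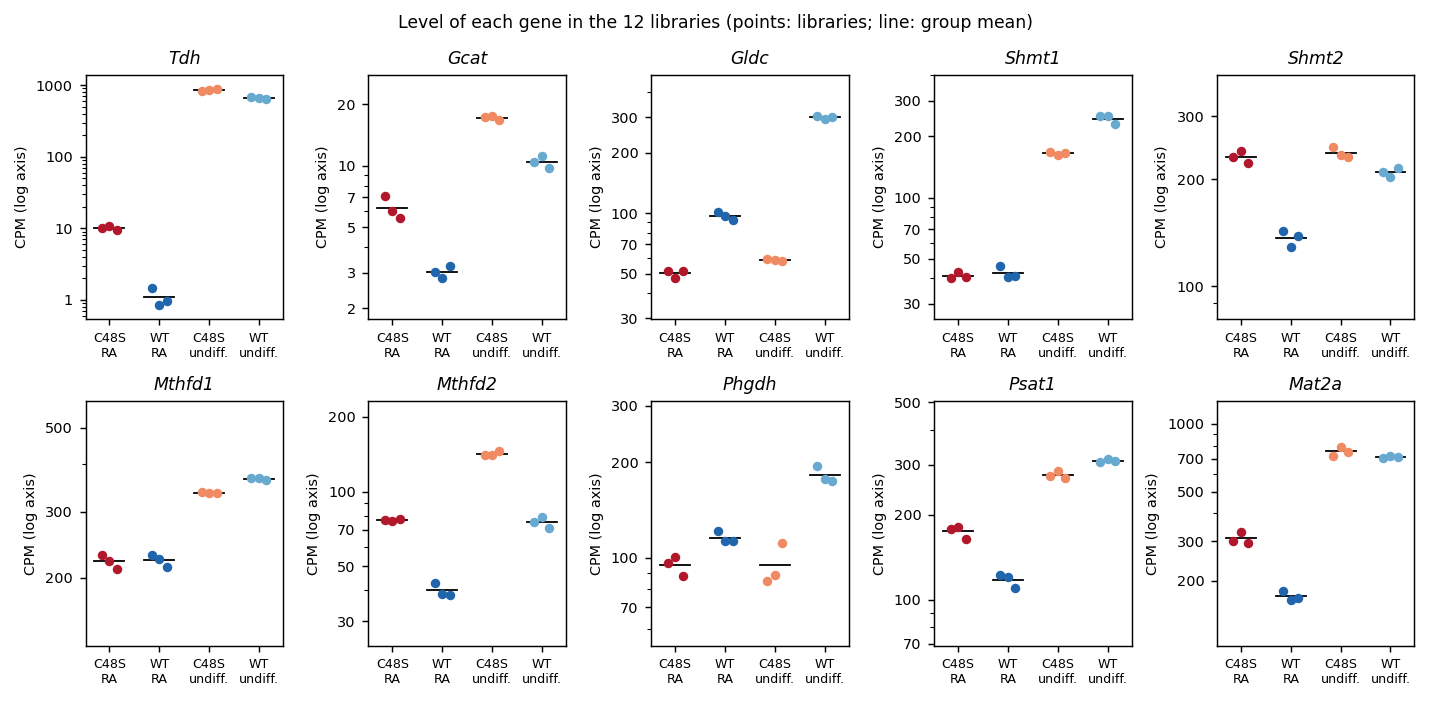
Level of each of the 10 genes in every library, in CPM on a log axis, with the groups in the order C48S RA, WT RA, C48S undifferentiated and WT undifferentiated; each point is a library and each line a group mean. Tdh spans the widest range, with all 6 RA libraries at or below 10.7 CPM and all 6 undifferentiated libraries at or above 643 CPM.

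At RA day 2 without LIF most of these transcripts were below their undifferentiated level in both lines. In C48S cells 8 of the 10 fell and 0 rose, and Shmt2 and Phgdh did not pass the test. In that comparison 73.6% of all 17940 genes tested were called, 39.0% higher and 34.6% lower, at an adjusted p under 0.05 (edgeR's quasi-likelihood test, Benjamini-Hochberg adjustment). In WT cells all 10 fell, where 78.3% of all genes tested were called, 40.9% higher and 37.4% lower. The RA and undifferentiated libraries did not overlap for 8 of the 10 genes in C48S, where the same held for 73.8% of all genes tested, and for 10 of 10 in WT, where it held for 80.9%. The median log2 fold change over the 10 genes was -0.77 in C48S and -1.51 in WT, beside 0.05 in C48S and 0.06 in WT over all genes tested. Fold changes below are log2 values ± SE from 3 libraries per group.

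Of the 10 transcripts Tdh fell furthest in both lines. It (ENSMUSG00000021953, chromosome 14, 63729796 to 63746541 on GRCm39, minus strand, 10 exon blocks) was at 10.2, 10.7 and 9.59 CPM in the C48S RA libraries, against 840.5, 850 and 880 CPM in the C48S undifferentiated libraries. In WT it was at 1.45, 0.858 and 0.977 CPM after RA, from 14, 10 and 10 counts, against 675, 668 and 643 CPM undifferentiated. No RA library came near an undifferentiated one in either line. Tdh fell by 6.40 ± 0.073 in C48S (edgeR adjusted p = 7.99e-39) and fell by 9.25 ± 0.19 in WT (7.03e-40), the 10th lowest and the 3rd lowest of the 17940 fold changes. The fall was smaller in C48S by 2.85 ± 0.21 (interaction, adjusted p = 6.10e-16). Gcat (ENSMUSG00000006378, chromosome 15, 78915074 to 78922553, plus strand) fell by 1.46 ± 0.13 in C48S and fell by 1.79 ± 0.17 in WT. A second identifier with the same symbol shares 47.5% of its exonic bases and had 0 counts in all libraries, so the level of Gcat is uncertain. The interaction for Gcat was 0.33 ± 0.22 and did not pass the test (adjusted p = 0.237).

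Mat2a (chromosome 6, 72409782 to 72416541, minus strand) was at 303, 330 and 296 CPM in C48S RA libraries, against 722, 792 and 751 CPM in C48S undifferentiated libraries. In WT it was at 180, 165 and 168 CPM after RA, against 709, 719 and 709.5 CPM undifferentiated. The states did not overlap in either line, and Mat2a fell by 1.29 ± 0.049 in C48S and fell by 2.06 ± 0.050 in WT (interaction 0.77 ± 0.070, adjusted p = 2.70e-11). Shmt1, the cytosolic serine hydroxymethyltransferase (chromosome 11, 60678930 to 60702544, minus strand), fell by 2.00 ± 0.059 in C48S and fell by 2.51 ± 0.059 in WT (interaction 0.51 ± 0.084, adjusted p = 5.15e-06), with 40.3 to 42.9 CPM in C48S RA, 40.8 to 46.2 CPM in WT RA, 163 to 167 CPM in C48S undifferentiated and 229 to 252 CPM in WT undifferentiated libraries. Its mitochondrial counterpart Shmt2 (chromosome 10, 127352992 to 127358313, minus strand) was at 231, 240 and 221 CPM in C48S RA libraries, against 246, 233 and 231 CPM in C48S undifferentiated libraries. These overlapped, and the change of -0.04 ± 0.049 did not pass the test (adjusted p = 0.491). In WT, Shmt2 was at 143, 129 and 138 CPM after RA, against 209, 202 and 215 CPM undifferentiated, a fall of 0.61 ± 0.051. The interaction was 0.57 ± 0.071 (adjusted p = 2.95e-08).

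Of the serine synthesis enzymes, Psat1, the phosphoserine aminotransferase (chromosome 19, 15882042 to 15924701, minus strand), fell by 0.66 ± 0.050 in C48S and fell by 1.40 ± 0.051 in WT (interaction 0.74 ± 0.072, adjusted p = 1.65e-10). Phgdh, the phosphoglycerate dehydrogenase (chromosome 3, 98220486 to 98247306, minus strand), was at 96.5, 100.4 and 88.0 CPM in C48S RA libraries, against 84.9, 88.6 and, in replicate 3, 111 CPM in C48S undifferentiated libraries. Its change in C48S was 0.00 ± 0.080 (adjusted p = 0.986). Without replicate 3 of the undifferentiated group the change was 0.13 and passed the test (adjusted p = 0.0209). In WT, Phgdh was at 121, 113 and 113 CPM after RA, against 195, 178 and 175 CPM undifferentiated, and fell by 0.65 ± 0.077. The interaction was 0.66 ± 0.11 (adjusted p = 6.33e-05).

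Both folate-interconverting enzymes fell in both lines. Mthfd1 (chromosome 12, 76302072 to 76366577, plus strand) fell by 0.61 ± 0.046 in C48S and fell by 0.72 ± 0.047 in WT, with 211 to 230.0 CPM in C48S RA, 213 to 229.6 CPM in WT RA, 335 to 339 CPM in C48S undifferentiated and 363 to 369 CPM in WT undifferentiated libraries. Mthfd2 (chromosome 6, 83282673 to 83302890, minus strand) fell by 0.88 ± 0.056 in C48S and fell by 0.92 ± 0.064 in WT. Their interactions were 0.11 ± 0.066 (adjusted p = 0.183) and 0.04 ± 0.085 (adjusted p = 0.775), so no difference between the lines in these falls was detected. Gldc (chromosome 19, 30075847 to 30152829, minus strand) fell by 0.22 ± 0.059 in C48S (adjusted p = 0.0014) and fell by 1.63 ± 0.051 in WT. The interaction was 1.41 ± 0.078 (adjusted p = 9.76e-17).

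Over the 10 genes the interaction was called for 7 and was positive for each of them, which is a smaller fall with RA in C48S or, for Shmt2 and Phgdh, a fall called in WT and not in C48S. Of all genes tested 39.4% had a called interaction, 22.2% a positive one and 17.2% a negative one. The RA changes and the differences between the lines are made from the same 12 libraries and are not independent of each other.

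**Figure D2:**
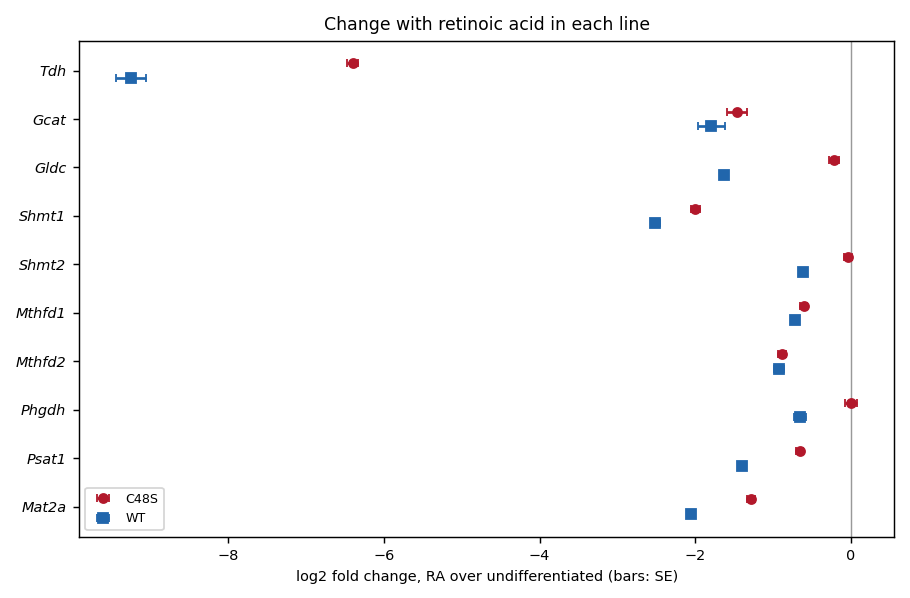
Log2 fold change of RA over undifferentiated cells for each of the 10 genes, with C48S and WT drawn apart; points are edgeR estimates and bars are SE from 3 libraries per group. In WT all 10 estimates lie below 0, and in C48S those of Shmt2 and Phgdh lie at -0.04 and 0.00.

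At RA day 2, 6 of the 10 transcripts were higher in C48S than in WT (Tdh, Gcat, Shmt2, Mthfd2, Psat1, Mat2a), Gldc and Phgdh were lower, and Shmt1 and Mthfd1 did not pass the test. Of all genes tested 54.5% were called in that comparison, 28.8% higher and 25.7% lower. The lines did not overlap for 8 of the 10 genes, and for 62.6% of all genes tested, and the median log2 fold change was 0.66 over the 10 genes and 0.02 over all. Between the undifferentiated lines, 4 of the 10 were higher in C48S than in WT (Tdh, Gcat, Shmt2, Mthfd2), 5 were lower (Gldc, Shmt1, Mthfd1, Phgdh, Psat1) and Mat2a did not pass the test. There 55.6% of all genes tested were called, 27.5% higher and 28.1% lower. The lines did not overlap for any of the 10 genes, and for 58.3% of all genes tested, and the median was -0.02 over the 10 genes and 0.00 over all.

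Gldc, the decarboxylase subunit of glycine cleavage, had the largest difference of the 10 between the undifferentiated lines. At RA day 2 it was at 51.6, 47.5 and 51.6 CPM in C48S, against 102, 96.8 and 92.5 CPM in WT. Undifferentiated, it was at 59.1, 58.5 and 57.8 CPM in C48S, against 305, 294 and 300.5 CPM in WT. All C48S libraries of either state lay below all WT libraries of either state. The log2 fold change of C48S over WT was -0.95 ± 0.057 after RA (adjusted p = 2.56e-16) and -2.36 ± 0.054 undifferentiated (adjusted p = 4.10e-28).

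Tdh was higher in C48S than in WT after RA by 3.22 ± 0.20 (adjusted p = 9.19e-19), the 62nd highest of the 17940 fold changes in that comparison, and undifferentiated by 0.37 ± 0.045 (adjusted p = 1.08e-08). The lines overlapped in neither state. Of the stem cell markers, whose sums are given above, 7 of 8 were also higher in C48S after RA and Dppa5a was lower. Over all genes tested 28.8% were higher and 25.7% lower in that comparison. The part of the stem cell markers in the Tdh difference was not tested. Gcat was at 7.07, 5.99 and 5.55 CPM in C48S RA libraries, against 3.01, 2.83 and 3.22 CPM in WT RA libraries, and was higher by 1.04 ± 0.18 (adjusted p = 5.10e-06). Undifferentiated it was higher by 0.71 ± 0.12 (adjusted p = 6.91e-06).

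Mthfd2, the mitochondrial folate dehydrogenase, was at 77.1, 76.4 and 77.2 CPM in C48S RA libraries, against 42.8, 38.8 and 38.3 CPM in WT RA libraries. Undifferentiated it was at 140, 141 and 145 CPM in C48S, against 75.4, 79.3 and 71.6 CPM in WT. The lines did not overlap in either state, and the differences were close to each other, at 0.95 ± 0.063 after RA and 0.91 ± 0.057 undifferentiated. Both exceeded the median of its chromosome, by 0.31 after RA and 0.33 undifferentiated. Mat2a, also on chromosome 6, differed by 0.86 ± 0.050 after RA (adjusted p = 2.12e-16) and by 0.08 ± 0.048 undifferentiated (adjusted p = 0.139). Relative to the median of that chromosome these are 0.22 after RA and -0.50 undifferentiated. Without C48S undifferentiated replicate 1 or 3 its undifferentiated difference passed the test (adjusted p = 0.0464 and 0.0272). Shmt1, on chromosome 11, overlapped between the lines after RA, with a difference of -0.05 ± 0.065 (adjusted p = 0.531), which is 0.43 relative to the median of that chromosome. Undifferentiated it was lower in C48S, at -0.57 ± 0.052, which is -0.04 relative to that median. The part of the chromosome-wide shifts in these values was not tested.

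Shmt2 was higher in C48S by 0.76 ± 0.050 after RA and by 0.18 ± 0.050 undifferentiated (adjusted p = 0.00206). Psat1 stood at 178, 182 and 164 CPM in C48S RA libraries, against 123, 120.5 and 110.1 CPM in WT RA libraries, higher by 0.57 ± 0.052 (adjusted p = 1.90e-11). Undifferentiated it stood at 274, 285 and 269 CPM in C48S, against 306, 316 and 309 CPM in WT, a difference of -0.17 ± 0.049 (adjusted p = 0.00362). Psat1 was thus higher in C48S after RA and lower undifferentiated, with no overlap of the lines, and its interaction is given above. Phgdh was lower in C48S in both states, at -0.29 ± 0.079 after RA (adjusted p = 0.00403) and -0.94 ± 0.078 undifferentiated (adjusted p = 1.21e-09). Mthfd1 differed by -0.01 ± 0.047 after RA (adjusted p = 0.873). Undifferentiated it was lower, at -0.12 ± 0.046 (adjusted p = 0.0236), which did not pass the test without WT undifferentiated replicate 2 (adjusted p = 0.0708).

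**Figure D3:**
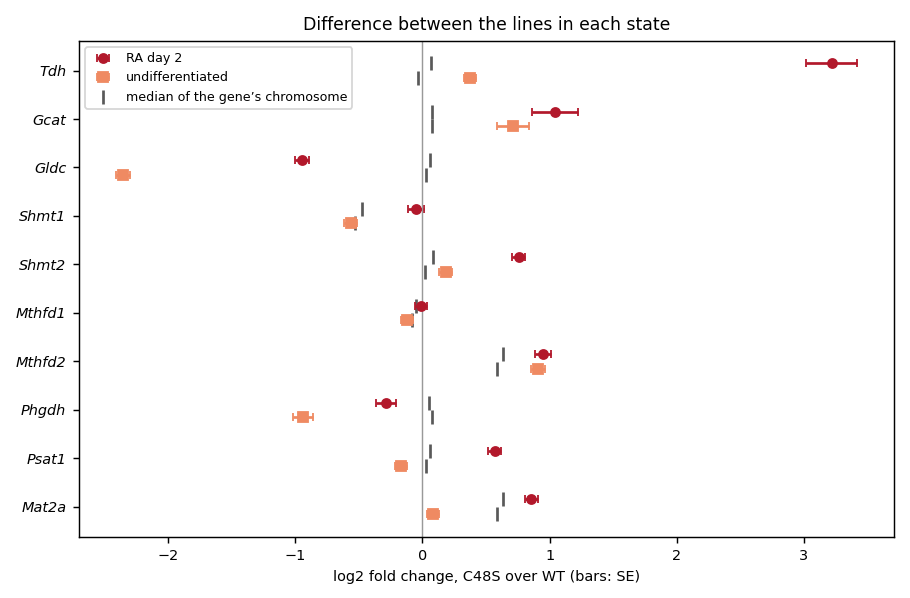
Log2 fold change of C48S over WT for each of the 10 genes at RA day 2 and undifferentiated; points are edgeR estimates and bars are SE from 3 libraries per group, and each tick is the median fold change of the protein-coding genes of that gene's chromosome. Tdh at RA day 2 lies furthest to the higher side (3.22) and Gldc undifferentiated furthest to the lower side (-2.36).

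Levels per kb of paired enzymes were set against each other within each library, as a description with no test. Shmt2 over Shmt1, the mitochondrial over the cytosolic enzyme, was 6.99 ± 0.163 in C48S RA, 3.998 ± 0.172 in WT RA, 1.79 ± 0.0456 in C48S undifferentiated and 1.07 ± 0.0871 in WT undifferentiated cells (SD, n = 3 each), and no groups overlapped. Mthfd2 over Mthfd1 was 0.443 ± 0.0198 in C48S RA and 0.228 ± 0.00899 in WT RA cells. Undifferentiated it was 0.537 ± 0.0124 in C48S and 0.262 ± 0.0112 in WT, so C48S libraries were higher in either state. Mthfd2 lies on chromosome 6, whose median log2 fold change of C48S over WT was 0.63 after RA and 0.58 undifferentiated. Shmt1 lies on chromosome 11, where the medians were -0.48 and -0.53. The part of these shifts in the 2 ratios was not tested. Psat1 over Phgdh, enzymes of the same route, was 1.08 ± 0.0172 in C48S RA and 0.594 ± 0.0258 in WT RA cells, and 1.73 ± 0.271 in C48S undifferentiated and 0.999 ± 0.0682 in WT undifferentiated cells. Gldc over Amt, the aminomethyltransferase of the same cleavage system, was 0.194 ± 0.0174 in C48S RA and 0.813 ± 0.0365 in WT RA cells, against 0.158 ± 0.00352 in C48S undifferentiated and 0.737 ± 0.0523 in WT undifferentiated cells. That ratio separated the lines by more than it separated the states.

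**Figure D4:**
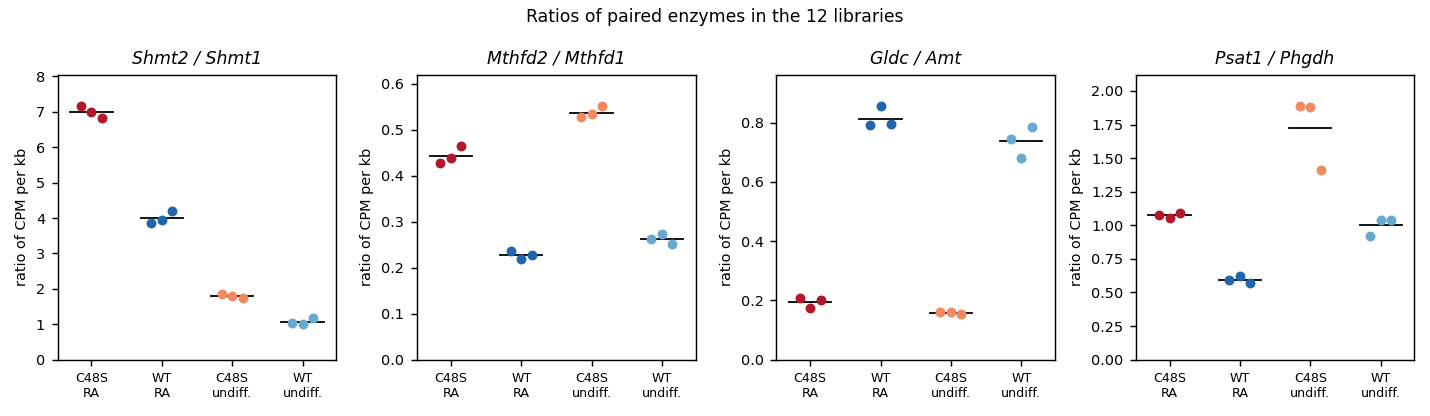
Ratios of CPM per kb between paired enzymes in each library, with the groups in the order C48S RA, WT RA, C48S undifferentiated and WT undifferentiated; points are libraries and lines are group means. For Gldc over Amt all 6 C48S libraries lie between 0.154 and 0.207 and all 6 WT libraries between 0.681 and 0.856.

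The other enzymes and transporters of these routes gave 46 genes in 7 lists, of which 43 passed the filter on low counts. Sds and Sdsl, which break down serine, and Mat1a, the liver counterpart of Mat2a, did not. With RA, 25 of the 43 fell and 11 rose in C48S, where 34.6% of all genes tested were called lower and 39.0% higher. In WT 27 of the 43 fell and 9 rose, beside 37.4% lower and 40.9% higher over all genes tested. The median log2 fold change over the 43 was -0.37 in C48S and -0.62 in WT. Between the lines after RA 16 of the 43 were higher in C48S and 10 lower, beside 28.8% higher and 25.7% lower over all genes tested. Undifferentiated 12 of the 43 were higher in C48S and 19 lower, beside 27.5% and 28.1%. The interaction was called positive for 19 of the 43 and negative for 6, beside 22.2% and 17.2%.

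Of the partners of Gldc in glycine cleavage, Amt and Gcsh were higher in C48S than in WT after RA, where Gldc was lower. Amt was at 99.9, 109 and 102 CPM in C48S RA libraries, against 51.5, 45.3 and 46.6 CPM in WT RA libraries, higher by 1.12 ± 0.062 (adjusted p = 2.64e-17). Undifferentiated it was at 148, 146 and 150.3 CPM in C48S, against 164, 173 and 153 CPM in WT, a difference of -0.14 ± 0.055 (adjusted p = 0.0272). Gcsh, the lipoyl carrier protein of the system, lies on chromosome 8, whose median was 0.58 after RA and 0.52 undifferentiated. It was higher in C48S after RA by 0.50 ± 0.075 (adjusted p = 6.75e-07) and lower undifferentiated, at -0.60 ± 0.062. With RA, Amt fell by 0.51 ± 0.056 in C48S and fell by 1.78 ± 0.061 in WT, and Gcsh fell by 1.06 ± 0.067 in C48S and fell by 2.16 ± 0.070 in WT. Dld, the dehydrogenase that other mitochondrial complexes also use, was between 67.3 and 75.3 CPM in all 12 libraries and was not called in any of the 5 comparisons.

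Among the mitochondrial folate enzymes, Mthfd1l, the formate-releasing synthetase, was higher in C48S by 0.47 ± 0.064 after RA and 0.17 ± 0.055 undifferentiated, and fell with RA in both lines (-1.22 ± 0.058 in C48S, -1.52 ± 0.062 in WT). Mthfd2l, the paralogue of Mthfd2, differed by 0.07 ± 0.21 after RA, which did not pass the test (adjusted p = 0.812). Undifferentiated it was at 2.59 to 3.39 CPM in C48S, against 6.29 to 7.13 CPM in WT, a difference of -1.16 ± 0.20 (adjusted p = 3.18e-06). Aldh1l2, the mitochondrial formyltetrahydrofolate dehydrogenase, rose with RA, by 1.85 ± 0.19 in C48S and 0.56 ± 0.19 in WT. In WT the states overlapped, at 4.79 to 7.55 CPM after RA and 3.90 to 4.87 CPM undifferentiated. Mtfmt, the mitochondrial methionyl-tRNA formyltransferase, named after its values were seen, was lower in C48S after RA (-0.30 ± 0.091, adjusted p = 0.00528) and higher undifferentiated (0.30 ± 0.095, adjusted p = 0.00782). Of the 14 folate enzymes tested beside the 10 genes, the interaction was called positive for 6 and negative for 3, beside 22.2% and 17.2% of all genes tested. Those called positive included Fpgs, which adds glutamates to folates (0.72 ± 0.095), and Gart of purine synthesis (0.36 ± 0.062), and those called negative included Mtfmt (-0.60 ± 0.13).

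Folr1, a folate receptor, was at 89.1, 99.4 and 96.6 CPM in C48S RA libraries, against 75.1, 71.8 and 76.5 CPM in WT RA libraries (0.35 ± 0.062). Undifferentiated it was at 23.7, 25.3 and 24.3 CPM in C48S, against 82.3, 88.9 and 78.3 CPM in WT (-1.77 ± 0.073, adjusted p = 4.32e-21). C48S libraries were thus the higher after RA and the lower undifferentiated, with no overlap. Folr1 rose with RA in C48S by 1.96 ± 0.072 and fell by 0.16 ± 0.063 in WT, and the interaction was 2.12 ± 0.096 (adjusted p = 2.75e-19).

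In the methionine cycle, Mat2b, the regulatory partner of Mat2a, lies on chromosome 11 and was lower in C48S in both states (-0.49 ± 0.067 after RA, -0.52 ± 0.061 undifferentiated), close to the chromosome medians. Ahcy, which clears S-adenosylhomocysteine, fell with RA by 0.84 ± 0.050 in C48S and fell by 0.89 ± 0.050 in WT. Mtrr, which keeps methionine synthase active, did not pass the test between the lines after RA (-0.03 ± 0.085, adjusted p = 0.822) and was lower in C48S undifferentiated (-0.98 ± 0.072, adjusted p = 6.20e-14). Psph, the phosphatase that completes serine synthesis, was not called between the lines in either state (0.13 ± 0.11 after RA, 0.06 ± 0.11 undifferentiated).

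**Figure D5:**
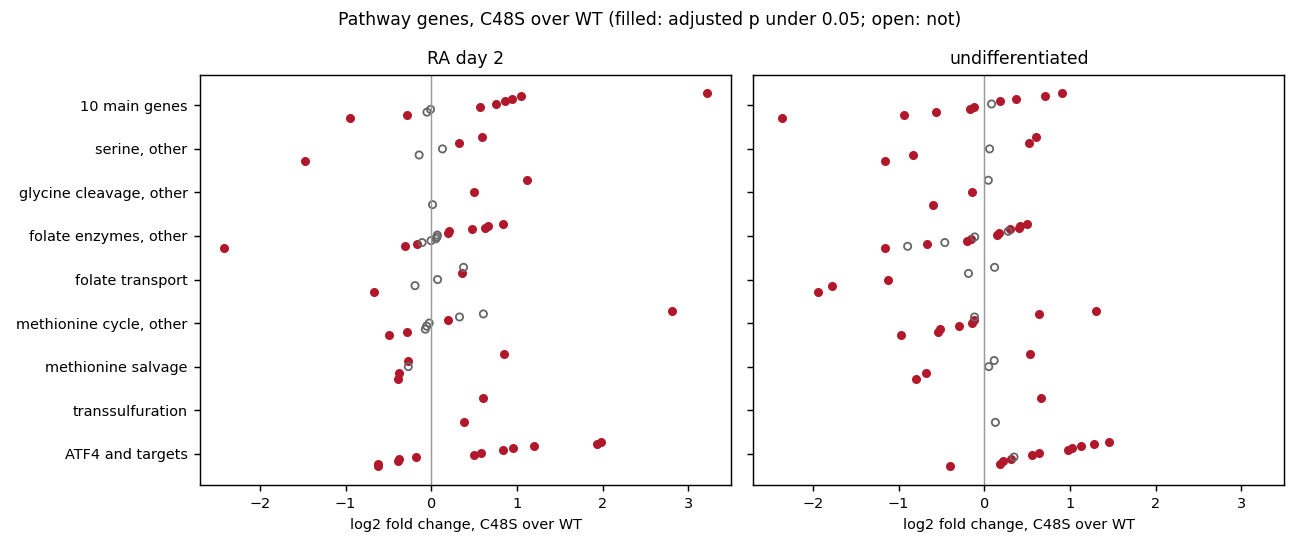
Log2 fold change of C48S over WT at RA day 2 (left) and undifferentiated (right) for the tested genes of each pathway list, with the 10 enzymes as a list of their own at the top; each circle is a gene, filled at an adjusted p under 0.05 (edgeR, Benjamini-Hochberg) and open otherwise. After RA both tested partners of Gldc that were called lie above 0 (Amt at 1.12, Gcsh at 0.50), and undifferentiated all 3 called folate transport genes lie below 0. Gcsh lies on chromosome 8, whose median after RA was 0.58.

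Phgdh, Psat1, Shmt2 and Mthfd2 are known targets of ATF4, the transcription factor of the amino acid response, so Atf4 and 11 other known targets were set beside them. Atf4 itself was at 202, 206 and 207 CPM in C48S RA libraries, against 110.4, 103 and 105 CPM in WT RA libraries (0.95 ± 0.059). Undifferentiated it was at 367, 373 and 438 CPM in C48S, against 208, 204 and 186 CPM in WT (0.98 ± 0.056, adjusted p = 1.68e-16). Between the lines after RA 7 of the 12 were higher in C48S and 5 lower, beside 28.8% higher and 25.7% lower over all genes tested. Undifferentiated 10 of the 12 were higher in C48S and 1 was lower, beside 27.5% and 28.1%. The interaction was called positive for 3 of the 12 and negative for 5, beside 22.2% and 17.2%, with a median of -0.19 over the 12 and 0.02 over all genes tested. Asns, the asparagine synthetase, which lies on chromosome 6, was higher in C48S by 1.93 ± 0.052 after RA and by 0.31 ± 0.049 undifferentiated. The median of that chromosome was 0.63 after RA and 0.58 undifferentiated, so the undifferentiated difference of Asns lay below it. The part of that shift in the Asns values was not tested. The interaction of Asns was 1.62 ± 0.072 (adjusted p = 2.38e-19). Eif4ebp1, a repressor of translation on chromosome 8, also had a positive interaction (0.62 ± 0.071, adjusted p = 7.99e-09). Ddit4, an inhibitor of mTORC1 signalling, was at 202, 199.9 and 194 CPM in C48S RA libraries, against 312, 295 and 309 CPM in WT RA libraries. In undifferentiated cells it was at 54.0, 55.6 and 66.5 CPM in C48S, against 40.2, 40.1 and 39.6 CPM in WT. Ddit4 was thus lower in C48S after RA and higher undifferentiated, with no overlap, and its interaction was -1.17 ± 0.086 (adjusted p = 1.68e-13). The interaction of Cebpb, a bZIP transcription factor, was -1.26 ± 0.20 (adjusted p = 2.79e-06). Of the ATF4 targets among the 10 enzymes, Mthfd2 and Shmt2 were higher in C48S in both states, Psat1 was higher after RA and lower undifferentiated, and Phgdh was lower in both. With RA, Atf4 fell by 0.94 ± 0.055 in C48S and fell by 0.91 ± 0.059 in WT, while 6 of the 12 rose and 4 fell in C48S, beside 39.0% higher and 34.6% lower over all genes tested, and 8 rose and 4 fell in WT, beside 40.9% and 37.4%.

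The protein-coding genes whose level followed that of Tdh most closely over the 12 libraries, by Pearson's r of log2(CPM + 1) among 13922 candidates, were Eed (r = 0.9985), Xpot (0.9982), Nr0b1 (0.9981), Zfp553 (0.998) and Kif5b (0.9979). The libraries form 4 groups and share the RA contrast, so r is a description. Of these, Nr0b1, a nuclear receptor gene, came closest in size of change, at 8.73 CPM in C48S RA, 1.33 in WT RA, 181 in C48S undifferentiated and 157 in WT undifferentiated cells. Eed, a Polycomb subunit, stood at 75.3 CPM in C48S RA, 57.0 in WT RA, 155 in C48S undifferentiated and 152 in WT undifferentiated cells.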

How the data were processed

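Per the labels' protocols, total RNA was isolated on columns and its ribosomal RNA was removed before library preparation. The authors deposited raw counts per gene, made on read pairs with featureCounts 1.6.3 with strand option 2, assignment by largest overlap and Ensembl GRCm39 release 104, per the file headers. The submitters' processing notes also name STAR 2.7.9a, DESeq2 and mm39. Symbols were matched to 94.0% of the identifiers, and coordinates are those of the files. Groups follow the titles. The treatment field gives RA libraries differing days, whereas the titles and the protocol give day 2.

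The test was edgeR's (version 4.0.16, R 4.3.3, filterByExpr at a minimum count of 10, TMM scaling, a robust quasi-likelihood fit of group means over all 12 libraries with 8 residual degrees of freedom), with p-values adjusted by Benjamini-Hochberg over all 17940 genes tested. SE was computed from the fitted means, the dispersion and the quasi-dispersion. CPM uses the TMM-scaled library size, and CPM per kb the exonic length in the files. The interaction is the RA change of C48S minus that of WT. Alternatives were RLE scaling, TMM without chromosomes 6, 8, 11, X and Y, DESeq2 1.42.0, no filter or 1 CPM in 3 libraries, fits restricted to the groups compared, a test against a 1.5-fold null, a replicate block, and leaving out each of the 12 libraries.

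The members and lists were chosen with earlier results of these data known. All 10 enzymes are named in every comparison. From each other list up to 4 genes per comparison could be named, from those with the smallest adjusted p. Enzymes of the same complex or step as a member (among them Amt, Gcsh, Dld, Psph, Mthfd1l, Mthfd2l, Aldh1l2, Mat2b and Ahcy) could be named in any comparison. Mtfmt falls outside this rule. Some genes named for a comparison are also given in others where they were not among the 4. Examples are Mtrr after RA, Asns undifferentiated and Ddit4 between the lines in either state. The result of 1 gene of the folate list is not reported here. Library totals from 8678088 to 13597098 counts leave values near 1 CPM resting on 10 to 14 counts.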

Additional observations from a re-analysis of the deposited data

Results flagged for a closer look

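For 21 of the genes named above the RA change differed between the lines in the test of the difference itself (interaction in edgeR, log2, RA change of C48S minus that of WT, adjusted p under 0.05). Among the 10 enzymes the difference was 2.85 for Tdh, 1.41 for Gldc, 0.77 for Mat2a, 0.74 for Psat1, 0.66 for Phgdh, 0.57 for Shmt2 and 0.51 for Shmt1. Of their partners in glycine cleavage, Amt had 1.26 and Gcsh 1.10. Of the mitochondrial folate enzymes, Aldh1l2 had 1.29, Mthfd2l 1.23, Mthfd1l 0.30 and Mtfmt -0.60. Of the other folate enzymes, Fpgs had 0.72 and Gart 0.36. Folr1 had 2.12 and Mtrr 0.95, and of the ATF4 targets Asns had 1.62, Eif4ebp1 0.62, Ddit4 -1.17 and Cebpb -1.26.
Of the 21, 18 are positive and 3 negative. Over all genes tested 39.4% had a called interaction, 22.2% a positive one and 17.2% a negative one. Some of the 21 were named for a small adjusted p, Mtfmt after its values were seen, and all were kept for a called interaction. Their number and the split by sign therefore depend on that choice and are a description only. Tdh, Amt, Asns and Mat2a fell in both lines, and by less in C48S, whereas Folr1 rose in C48S and fell in WT. Aldh1l2 rose in both, in WT with libraries that overlapped between the states. Ddit4 and Cebpb rose in both lines, and by less in C48S. With 3 libraries a group, no library was tested for standing apart from its group.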

How the results depend on the processing

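Against a fold of 1.5 as the null, 2952, 3605, 7032, 9060 and 2257 genes were called for C48S against WT after RA, C48S against WT undifferentiated, RA in C48S, RA in WT and the interaction. Of the 10 enzymes 5 were then higher and 1 lower in C48S after RA, 1 was higher and 2 lower undifferentiated, 5 fell with RA in C48S, 8 fell in WT and 4 had a positive interaction. Calls lost there include Psat1 after RA (adjusted p = 0.995) and, for RA in WT, Shmt2 (0.213) and Phgdh (0.127). Of 990 values of single enzymes under the alternatives, 954 kept their direction and their side of the threshold, 18 lost their call, most of them against the 1.5-fold null, 3 gained one, and 15 changed sign, each of those for differences near 0 that were not called. For the RA change of Phgdh in C48S the value was -0.00027 with RLE scaling, -0.0011 with DESeq2 and -0.021 without a filter. It lay between -0.074 and 0.13 with each library left out, where without C48S undifferentiated replicate 3 it passed the test and the count of enzymes that rose with RA in C48S was 1, against 0 otherwise. The difference of Mthfd1 after RA lay between -0.062 and 0.020 with each library left out, and was 0.020 without C48S RA replicate 3 and 0.0041 without WT RA replicate 1, and its undifferentiated call was lost without a filter (adjusted p = 0.0829). The interaction of Mthfd2 lay between -0.025 and 0.074, and was -0.0099 without WT RA replicate 3 and -0.025 without WT undifferentiated replicate 2. The cause of these changes was not tested.

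With each library left out, genes called ranged from 8889 to 10737 (C48S against WT after RA), 9189 to 10221 (undifferentiated), 12706 to 13381 (RA in C48S), 13687 to 14743 (RA in WT) and 6420 to 7771 (interaction). No pairing by replicate number was seen in deviations from the group means: of 18 same-numbered pairs 0 had deviations correlated above 0.1 (r from -0.069 to 0.045). This does not tell whether same-numbered libraries were grown or prepared together. With the replicate number as a block, 9638, 9858, 13092, 13969 and 6938 genes were called in the same order of comparisons, and the calls of the 10 enzymes were as without it. RLE scaling and TMM without chromosomes 6, 8, 11, X and Y moved the median of all genes by at most 0.045. Tdh in WT RA libraries rests on 10 to 14 counts, so its fold there is less precise than the others.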
